A study of Mus musculus with 15 samples.

Results

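Mouse brain tumours carrying the histone H3.3G34R were compared with tumours carrying wild-type H3.3 (H3.3WT) in animals whose Atrx gene was left intact. These were 7 of the 15 RNA-seq libraries of the series, taken as all libraries with the genotype label Np53fl. The p53_G34R group held 3 tumours that received GFP-tagged H3.3G34R, and the p53_WT group held 4 tumours that received GFP-tagged H3.3WT. Both groups came from C57BL/6 mice with Nestin Tv-a and floxed Trp53, and both were given Cre, the growth factor PDGFA and the histone on RCAS vectors. RCAS vectors derive from an avian retrovirus and enter only cells with its receptor Tv-a, which the Nestin promoter drives in neural stem and progenitor cells, and here they were shed by DF-1 chicken fibroblasts injected into the cortex. The histone was therefore an added copy beside the H3.3 genes of the mouse, in both groups. Tumours were taken from the frontal cortex when a mouse reached a functional end point such as ataxia or weight loss, so they were compared at the end of disease and not at a shared age. The labels give neither age nor sex, and no label says that each library came from a separate mouse, so the p-values measure the spread between these libraries. In the titles, p53_G34R replicates 2 and 3 share a code, as do p53_WT replicates 3 and 4. What this code stands for is not stated. Each library is called a tumour here.

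Histone H3.3 is placed into chromatin outside replication, by HIRA in active genes and by ATRX with DAXX at repeats and telomeres. The G34R substitution puts an arginine in place of a glycine in the tail of H3.3 and is known from high-grade gliomas of the cerebral hemispheres in adolescents and young adults, mostly together with loss of ATRX. Healthy brain holds little fibrillar collagen, which is made around vessels by fibroblasts and mural cells and, in some gliomas, by tumour cells. Collagen chains are hydroxylated and folded in the endoplasmic reticulum, trimmed and crosslinked outside the cell, and cut by matrix metalloproteinases.

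The 7 libraries held 24979735 to 35679129 reads in genes. Values are read counts divided by 1 size factor per library, called normalized counts, and list sums are sums of them. Atrx held 5143 to 8540.0 normalized counts in the 7 intact tumours and 1346 to 3124 in the 8 tumours of the series with floxed Atrx, so the genotype label held in every library. p53_WT replicate 3 stood apart: its correlation with each other tumour over log2 values was 0.766 to 0.825 (6 pairs), against 0.880 to 0.956 among the other 6 tumours (15 pairs). It held 1252 normalized counts of Pdgfa, the gene of the tumour-driving ligand, where the other 6 tumours held at least 10562. The summed level of 18 oligodendrocyte progenitor genes, which mark PDGFA-driven gliomas, was 69149 in it and 264949 to 866785 in the others, and the summed level of 25 mature neuron genes was 456996 in it and 23167 to 56409.8 in the others. Results that rest on this tumour are given with and without it. Xist, which is expressed from the inactive X chromosome of female cells, was at 22273, 7.14 and 42922 in p53_G34R tumours and at 37261, 1.09, 17019 and 31170.4 in p53_WT tumours, so each group held 1 tumour with almost no Xist. In bulk tissue, fewer cells of a type and less RNA per cell cannot be told apart.

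Genes of the engineered system did not separate the groups. Pdgfa had 16395, 27550.2 and 19231 normalized counts in p53_G34R tumours, against 10562, 24446, 1252 and 60316 in p53_WT tumours. Pdgfra, which encodes its receptor, had 56405, 92373 and 116155 normalized counts in p53_G34R tumours, against 136891, 53316, 5531 and 119962 in p53_WT tumours. For both genes the p53_G34R values lay within the p53_WT range, and p53_WT replicate 3 was lowest of all 7. Nes, the gene of the neural progenitor filament nestin whose promoter drives Tv-a, had 13134, 11197 and 9432 normalized counts in p53_G34R tumours, against 4930.4, 10308, 6909.9 and 8961 in p53_WT tumours, with 2 p53_G34R tumours above every p53_WT tumour. H3f3a and H3f3b are the mouse genes of H3.3. Reads of the vector's histone could be counted for either gene, which was not tested, so their counts are uncertain. H3f3a had log2 difference 0.16 (SE 0.42) and H3f3b 0.56 (SE 0.42).

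Gene by gene, the difference between p53_G34R and p53_WT was small against the spread between tumours. Limma called 0 of 17873 tested genes (0.0%) at an adjusted p under 0.05, and every tested gene had an adjusted p of 0.999987. Without adjustment 262 genes (1.47%) had a limma p under 0.05, of which 136 (0.761%) were higher and 126 (0.705%) lower in p53_G34R tumours. The 2 groups did not overlap in any tumour for 467 genes (2.61%), with 220 (1.23%) higher and 247 (1.38%) lower. EdgeR's quasi-likelihood test called 0 genes (458 at an unadjusted p under 0.05, 2.56%), and DESeq2 called 12 of 20752 genes (0.0578%). The authors' deposited table holds 12 of 20753 genes (0.0578%) past the same threshold, and all 12 were those that DESeq2 called on the recovered reads. Since 0 genes passed limma, higher and lower below describe the tumours' values, and each gene's limma p is given only as under or over 0.05 before adjustment, in counts. For a single gene, an exact two-sided permutation test of 3 against 4 tumours cannot go below 0.0571, the value that any gene without overlap has.

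Of the 12 genes in the authors' deposited table, 7 were higher in p53_G34R tumours. They were the collagen gene Col5a2, the collagenase gene Mmp13, the immunoglobulin genes Ighg2b, Igha and Igkj1, Jchain, which joins secreted IgA and IgM, and the predicted gene Gm13394. The 5 lower genes were Npy2r, a receptor of the neuropeptide Y family, Ddc, the decarboxylase that makes dopamine and serotonin, Necab1, a neuronal calcium-binding protein gene, Klhdc7a and Cwh43. Their adjusted p in the authors' deposited table was 2.72e-07 for Npy2r, 0.00119 for Ighg2b, 0.00209 for Mmp13 and Gm13394, 0.0341 for Col5a2, Ddc and Cwh43, and between these values or at most 0.0414 for the rest.

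Several of the 12 rested on 1 or 2 tumours. Npy2r was at 0 in all 3 p53_G34R tumours and had 0, 1225, 187 and 1.06 normalized counts in p53_WT tumours, where replicates 2 and 3 carried nearly all of it. With a floor of 3 reads over the p53_G34R group, Npy2r was at least 371-fold lower, and at least 429-fold lower without p53_WT replicate 3. Necab1 had 27.5, 31.2 and 46.1 normalized counts in p53_G34R tumours, against 328, 37, 2845 and 244 in p53_WT tumours, and Klhdc7a had 4.23, 1.79 and 2.71 normalized counts in p53_G34R tumours, against 5.58, 119.7, 447 and 13.8 in p53_WT tumours. p53_WT replicate 3 was by far the highest for both, and the groups overlapped for Necab1 at p53_WT replicate 2 but not for Klhdc7a. Cwh43 had 1.06, 0 and 0 normalized counts in p53_G34R tumours, against 34.6, 8.70, 165 and 5.31 in p53_WT tumours, again with replicate 3 highest and no overlap. Gm13394 had 129, 3.57 and 753 normalized counts in p53_G34R tumours, against 0, 1.09, 5.18 and 3.19 in p53_WT tumours. Its p53_G34R replicates 1 and 3 were high and replicate 2 lay within the p53_WT range, while the 8 tumours with floxed Atrx held 1089 to 3651.

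**Figure D1:**
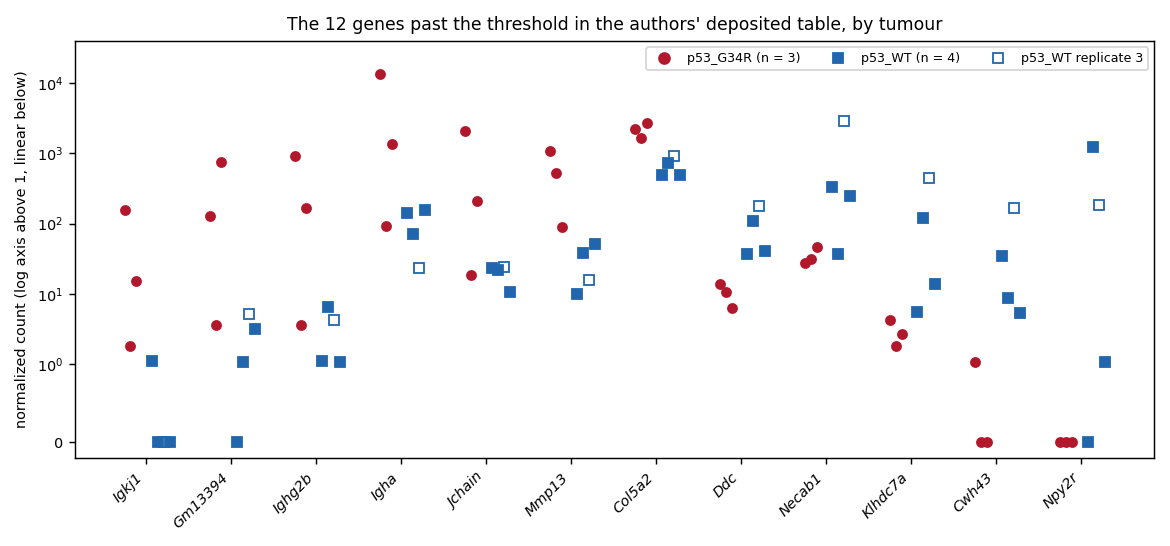
Normalized counts of the 12 genes that the authors' deposited table has at an adjusted p under 0.05, 1 point per tumour, with p53_G34R (n = 3) as red circles left of p53_WT (n = 4) as blue squares and p53_WT replicate 3 open; the axis is logarithmic above 1 and linear below. Col5a2 and Mmp13 have 3 p53_G34R tumours above 4 p53_WT tumours, whereas the immunoglobulin genes are high in p53_G34R replicates 1 and 3 and Npy2r is high in p53_WT replicates 2 and 3.

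Collagen genes stood higher in H3.3G34R tumours, and no chain of type V collagen overlapped between the groups. Of 17 fibrillar and associated collagen genes, 16 had a positive log2 difference with a median of 1.06, beside 8931 of 17873 genes positive and a median of -0.00 over all genes tested. Limma called 0 of them, 7 had an unadjusted p under 0.05 in the higher direction (0.761% of all genes), and 5 had p53_G34R tumours that all lay above the p53_WT tumours (1.23% of all genes). Without p53_WT replicate 3 the median was 1.07 (15 of 17 positive), and without p53_G34R replicate 1 it was 1.20 (16 of 17). The highest tumour was p53_G34R replicate 1 for 7 members and p53_G34R replicate 3 for 8. The summed level was 168753, 64329 and 87907 in p53_G34R tumours and 39408, 84715, 31298 and 56424 in p53_WT tumours. By sum the groups overlapped, since p53_G34R replicate 2 lay below p53_WT replicate 2.

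Type V collagen seeds and limits the thickness of type I fibrils. Col5a2 (mm10 chr1:45374321-45503282), the gene of its alpha2 chain, had 2212, 1666 and 2733 normalized counts in p53_G34R tumours, against 498, 731, 929.7 and 487 in p53_WT tumours. All 3 p53_G34R tumours lay above all 4 p53_WT tumours (log2 difference 1.76, SE 0.32), and the difference was 1.94 with SE 0.29 without p53_WT replicate 3. Predicted genes left out, it had the smallest limma p of the genes that were higher in p53_G34R tumours without overlap. Col5a1, the alpha1 chain, had 5882, 2878 and 3158 normalized counts in p53_G34R tumours, against 1326, 2339, 1847 and 1864 in p53_WT tumours. Col5a3, the alpha3 chain, had 3459, 2746 and 3245 normalized counts in p53_G34R tumours, against 1838, 1321, 2533 and 1382 in p53_WT tumours. Neither gene's groups overlapped (log2 differences 1.06, SE 0.32, and 0.88, SE 0.28), so all chains of type V collagen were higher in every p53_G34R tumour.

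The major fibrillar and beaded collagens varied more between tumours of a group. Col1a1, the main chain of type I collagen, had 3489, 5387 and 9515 normalized counts in p53_G34R tumours, against 1899, 1938, 3946 and 497 in p53_WT tumours, and Col3a1, of type III collagen, had 2391, 4698 and 6320.0 normalized counts in p53_G34R tumours, against 2171, 801, 2543 and 599 in p53_WT tumours. In Col1a1 p53_WT replicate 3 lay above p53_G34R replicate 1, and in Col3a1 it did too, so the groups overlapped with that tumour and did not overlap without it. The log2 differences were 1.78 (SE 0.67) and 1.70 (SE 0.59), and 2.20 and 2.03 without p53_WT replicate 3. Col6a3, of the beaded type VI collagen, had 1863, 1861 and 5484 normalized counts in p53_G34R tumours, against 482, 1825, 423 and 556 in p53_WT tumours. Its p53_G34R replicates 1 and 2 were only just above p53_WT replicate 2 (log2 difference 1.98, SE 0.60). Col16a1, a collagen that associates with fibrils, had 39557, 27052 and 17006 normalized counts in p53_G34R tumours, against 13949, 10401, 3354 and 14934 in p53_WT tumours, with no overlap (log2 difference 1.51, SE 0.57).

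Some collagens were high in a single tumour. Col6a1, another chain of type VI, had 29601, 1655 and 2406 normalized counts in p53_G34R tumours, against 915, 2199.9, 4797 and 628 in p53_WT tumours, and Col12a1, which bridges fibrils, had 16125, 352 and 537 normalized counts in p53_G34R tumours, against 667, 741, 1058 and 1119.6 in p53_WT tumours. Only p53_G34R replicate 1 lay above the p53_WT range in both genes. The same tumour was not the highest for Col5a2, Col1a1 or Col3a1.

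**Figure D2:**
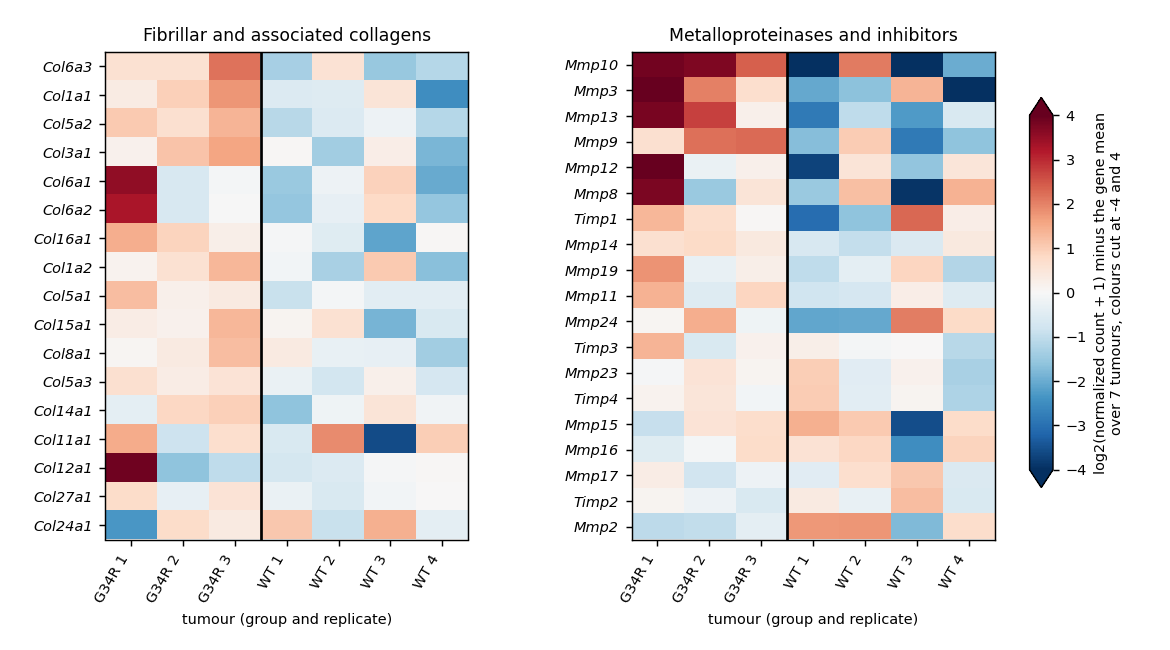
Tested collagen genes (left) and metalloproteinase and inhibitor genes (right) in each tumour, p53_G34R left of the black line and p53_WT right of it, as log2(normalized count + 1) minus the mean of the gene over the 7 tumours, with genes ordered by their log2 difference and colours saturated at -4 and 4. Col5a2 and Mmp13 are above the gene mean in all 3 p53_G34R columns, Col6a1 and Col12a1 strongly in the column of replicate 1 alone, and Mmp2 at the bottom is above it in 3 of 4 p53_WT columns.

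Enzymes that modify collagen leaned the same way, mostly through 1 tumour. Of 20 genes for hydroxylases, chaperones, processing proteases and lysyl oxidases, 19 had a positive log2 difference (median 0.55). In the higher direction 1 had an unadjusted limma p under 0.05 (0.761% of all genes) and 1 had groups without overlap (1.23% of all genes). The highest tumour was p53_G34R replicate 1 for 13. Without that tumour the median was 0.09 and 12 were positive. Loxl2, a lysyl oxidase that crosslinks collagen, had 8031, 1299.5 and 1205 normalized counts in p53_G34R tumours, against 372, 673, 252 and 545 in p53_WT tumours. All 3 p53_G34R tumours were above the p53_WT tumours (log2 difference 2.43, SE 0.69), with replicate 1 far above the others. Bmp1, the protease that trims procollagen, had 8936, 13081 and 6314 normalized counts in p53_G34R tumours, against 6996, 2832, 6999 and 6074 in p53_WT tumours, with p53_G34R replicate 3 inside the p53_WT range. The lysyl hydroxylase gene Plod1 had 6782, 3316 and 5101 normalized counts in p53_G34R tumours, against 4133, 3509.9, 3143 and 2786 in p53_WT tumours, with p53_G34R replicate 2 inside that range.

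Basement membrane genes, which encode the sheet around vessels, were higher by smaller amounts. Of 16 genes 12 had a positive log2 difference (median 0.70), and p53_G34R replicate 3 was highest for 7. In the higher direction 2 had an unadjusted limma p under 0.05 (0.761% of all genes) and 1 had groups without overlap (1.23% of all genes). Lamb1, the laminin beta1 chain, had 2076, 2397 and 4565 normalized counts in p53_G34R tumours, against 1604, 1907, 1476 and 1274 in p53_WT tumours, with no overlap (log2 difference 0.87, SE 0.32). Fn1, fibronectin, had 51478, 15034 and 25993 normalized counts in p53_G34R tumours, against 6254, 16295, 15926 and 8868 in p53_WT tumours, where p53_G34R replicate 2 lay below p53_WT replicates 2 and 3 (log2 difference 1.31, SE 0.52). Col4a1, the alpha1 chain of network-forming type IV collagen, had 17990.2, 24768 and 41274 normalized counts in p53_G34R tumours, against 13714, 23210.1, 13663 and 12942 in p53_WT tumours, and p53_WT replicate 2 lay among the p53_G34R values. Without p53_WT replicate 3 the median of the list was 0.38 (11 of 16 positive).

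Markers of the cells that make vessel matrix in brain leaned higher by gene count, but their sums did not separate the groups. In either list 0 members had groups without overlap (1.23% of all genes higher and 1.38% lower). Mural and fibroblast genes, which include 3 of the collagens above, had 15 of 19 positive (median 0.45), and their sums were 59257, 67669 and 89168 in p53_G34R tumours and 78174, 80122, 29262 and 70734 in p53_WT tumours. Endothelial genes had 13 of 19 positive (median 0.24, and 0.49 without p53_WT replicate 3), with sums of 33959, 29174 and 39943 in p53_G34R tumours and 20463, 27649, 51374 and 23094 in p53_WT tumours. Without p53_WT replicate 3, 16 endothelial genes were positive and 5 had an unadjusted limma p under 0.05 in the higher direction (1.67% of all genes). Every p53_G34R tumour then had a higher endothelial sum than every p53_WT tumour. Mural and fibroblast sums still overlapped, with 14 of 19 genes positive and 4 at such a p. No member of either list was at 0 in all tumours, and the part of these cells in the collagen values was not tested. Myh11, the smooth muscle myosin, ran the other way and had 54, 32.1 and 32.6 normalized counts in p53_G34R tumours, against 523, 87, 527 and 25.5 in p53_WT tumours, with p53_WT replicates 1 and 3 far above the rest.

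Other secreted matrix genes had 18 of 21 positive (median 0.51), of which 3 had an unadjusted limma p under 0.05 in the higher direction (0.761% of all genes) and 0 had groups without overlap (1.23% of all genes). Thbs1, the adhesive glycoprotein thrombospondin 1, had 1243, 1992 and 837 normalized counts in p53_G34R tumours, against 256, 886, 540.0 and 407 in p53_WT tumours, with p53_G34R replicate 3 below p53_WT replicate 2 (log2 difference 1.43, SE 0.48). Igfbp3, a binding protein of insulin-like growth factors, had 23731, 23390.2 and 9389 normalized counts in p53_G34R tumours, against 6296, 8319.9, 3369 and 12006 in p53_WT tumours (log2 difference 1.35, SE 0.51). Its p53_WT replicate 4 lay above p53_G34R replicate 3. Bgn, the small proteoglycan biglycan, had 23096, 2782 and 6112 normalized counts in p53_G34R tumours, against 3144, 2604, 2930.1 and 1721 in p53_WT tumours, with p53_G34R replicate 1 highest by far and replicate 2 inside the p53_WT range. Transforming growth factor beta genes, a pathway that drives matrix production, had 11 of 17 positive (median 0.17), and 8 without p53_WT replicate 2 (median -0.028). Without p53_WT replicate 3, 11 were positive (median 0.43) and 5 had an unadjusted limma p under 0.05 in the higher direction (1.67% of all genes). Their sums then did not overlap, with 19880 to 28116 in p53_G34R tumours and 16222 to 18128 in p53_WT tumours.

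Among the matrix lists, the 3 largest positive differences belonged to the secreted metalloproteinase genes Mmp10, Mmp3 and Mmp13. Of 20 metalloproteinase and inhibitor genes 19 were tested, Mmp7 being at 0 in all 7 tumours, and 16 had a positive log2 difference (median 1.01). Limma called 0, 5 had an unadjusted p under 0.05 in the higher direction (0.761% of all genes), and 3 were higher with groups that did not overlap (1.23% of all genes). The sums did not follow the gene counts, with 52779, 63838 and 68184 in p53_G34R tumours and 97319, 81221, 39911 and 65064 in p53_WT tumours. The median was 1.0 without p53_WT replicate 3 and 0.61 without p53_G34R replicate 1.

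Mmp13 is a collagenase that cuts fibrillar collagen, and Mmp10 and Mmp3 are stromelysins that cut matrix proteins and activate other proteases. Mmp13 had 1086, 522 and 89.6 normalized counts in p53_G34R tumours, against 10.04, 38.1, 15.6 and 51 in p53_WT tumours. Every p53_G34R tumour was above every p53_WT tumour (log2 difference 3.91, SE 0.94, and 3.72 with SE 1.0 without p53_WT replicate 3). Mmp10 had 911, 839 and 328 normalized counts in p53_G34R tumours, against 0, 265, 2.59 and 14.9 in p53_WT tumours, with only p53_WT replicate 2 near the p53_G34R values (log2 difference 5.83, SE 1.70). Mmp3 had 942, 199.9 and 78.7 normalized counts in p53_G34R tumours, against 11.2, 15.2, 129 and 1.06 in p53_WT tumours, and only p53_WT replicate 3 reached the p53_G34R range. Its log2 difference was 4.03 (SE 1.40) and 5.06 with SE 1.11 without p53_WT replicate 3, where DESeq2 called it (adjusted p = 3.74e-05).

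These genes neighbour each other on mouse chromosome 9. In mm10, Mmp13 lies at chr9:7272514-7283331, Mmp12 at chr9:7344381-7369499, Mmp3 at chr9:7445822-7455975, Mmp10 at chr9:7502352-7510240 and Mmp8 at chr9:7558456-7568485. Mmp12, the macrophage elastase, had 3786, 154 and 215 normalized counts in p53_G34R tumours, against 13.4, 268, 61.3 and 258 in p53_WT tumours, and Mmp8, the neutrophil collagenase, had 206, 4.46 and 20.8 normalized counts in p53_G34R tumours, against 4.46, 33.7, 0 and 39.3 in p53_WT tumours. In both, p53_G34R replicate 1 alone lay above the p53_WT range, and p53_G34R replicates 2 and 3 lay inside it.

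The promoters of the cluster's 3 genes with the smallest p-values are shown because metalloproteinase promoters are textbook targets of the transcription factor AP-1 close to the gene start. The windows run from 250 bases before to 50 after the start, are from RefSeq on GRCm38.p6 and are all on the plus strand, at chr9:7272264-7272563 for Mmp13, chr9:7502092-7502391 for Mmp10 and chr9:7445572-7445871 for Mmp3. Capitals mark the AP-1 motif TGANTCA, searched on both strands.
Mmp13: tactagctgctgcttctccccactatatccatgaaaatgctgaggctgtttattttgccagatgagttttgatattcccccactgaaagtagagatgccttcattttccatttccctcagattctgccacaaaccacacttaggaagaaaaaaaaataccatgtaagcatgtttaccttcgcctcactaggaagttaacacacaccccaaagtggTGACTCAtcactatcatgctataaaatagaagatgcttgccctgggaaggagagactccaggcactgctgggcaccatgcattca
Mmp10: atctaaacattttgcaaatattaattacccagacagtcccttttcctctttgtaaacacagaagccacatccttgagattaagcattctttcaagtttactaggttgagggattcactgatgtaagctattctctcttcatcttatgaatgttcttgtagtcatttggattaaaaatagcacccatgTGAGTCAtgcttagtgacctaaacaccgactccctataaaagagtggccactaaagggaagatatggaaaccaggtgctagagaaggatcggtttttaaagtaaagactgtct
Mmp3: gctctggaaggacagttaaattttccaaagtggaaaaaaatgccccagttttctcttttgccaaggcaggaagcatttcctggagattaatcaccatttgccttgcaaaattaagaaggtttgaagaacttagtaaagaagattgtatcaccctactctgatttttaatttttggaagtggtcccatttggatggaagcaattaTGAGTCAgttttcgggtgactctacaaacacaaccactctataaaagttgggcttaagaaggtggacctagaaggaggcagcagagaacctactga
Each window held 1 match, starting 35 bases before the gene start in Mmp13, 63 in Mmp10 and 46 in Mmp3. The motif was in the window of 5 of 15 metalloproteinase and inhibitor genes with a promoter in the table (33.3%), of 1 of 13 collagen genes (7.69%) and of 2425 of all 27025 genes (8.97%). A match describes the letters in the window and does not show that a factor binds there. Genes of AP-1 and other immediate early genes had 15 of 22 positive (median 0.23), with p53_G34R replicate 1 highest for 12. Without that tumour 11 were positive and the median was -0.037. Fosl1, an AP-1 subunit, had 569, 316 and 266 normalized counts in p53_G34R tumours, against 37.9, 214, 392 and 201 in p53_WT tumours, with overlap.

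The gelatinase gene Mmp9 had 768, 2303 and 2415 normalized counts in p53_G34R tumours, against 153, 1006, 68.3 and 163 in p53_WT tumours. Its p53_G34R replicates 2 and 3 were highest and p53_WT replicate 2 lay above p53_G34R replicate 1 (log2 difference 2.99, SE 0.88). Mmp14, a membrane-bound collagenase that activates the gelatinase of Mmp2, had 4059, 4489 and 3427 normalized counts in p53_G34R tumours, against 1676, 1360.0, 1746 and 3423 in p53_WT tumours, and all p53_G34R tumours lay above the p53_WT tumours, though p53_G34R replicate 3 and p53_WT replicate 4 almost met (log2 difference 1.05, SE 0.33). Mmp2 itself ran the other way, with 634, 668 and 1006 normalized counts in p53_G34R tumours, against 4407, 4444, 383 and 2155 in p53_WT tumours. Except for p53_WT replicate 3, every p53_WT tumour was above every p53_G34R tumour, and the log2 difference was -1.41 with SE 0.82 in 7 tumours and -2.21 with SE 0.35 without p53_WT replicate 3, where DESeq2 called it (adjusted p = 0.000903). Timp1, a secreted inhibitor of these enzymes, had 1042, 680.1 and 429 normalized counts in p53_G34R tumours, against 49.1, 135, 2029 and 499 in p53_WT tumours, with p53_WT replicate 3 the highest of the 7.

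Genes of the response to low oxygen and of glycolysis were all on the higher side, and 1 tumour carried most of the size. All 29 genes had a positive log2 difference (median 0.81), limma called 0, 3 had an unadjusted p under 0.05 in the higher direction (0.761% of all genes) and 1 had groups that did not overlap (1.23% of all genes, so that 1 of 29 is close to this background). p53_G34R replicate 1 was the highest tumour for 26 of them. The summed level was 369966, 100182 and 115966 in p53_G34R tumours and 51145, 139609, 132554 and 89398 in p53_WT tumours. Without p53_G34R replicate 1 the median was 0.27 and 21 of 29 were positive. Without p53_WT replicate 3 it was 0.92, with 29 of 29 positive.

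Adm, the gene of the vasodilator peptide adrenomedullin, was the member without overlap and had 2871, 2746 and 1709 normalized counts in p53_G34R tumours, against 173, 1269, 308 and 936 in p53_WT tumours (log2 difference 2.24, SE 0.68). Vegfa, the angiogenic factor, had 42776, 13758 and 14622 normalized counts in p53_G34R tumours, against 3406, 18698, 2212 and 8972 in p53_WT tumours. Ankrd37, an ankyrin repeat gene that hypoxia-inducible factor (HIF) induces, had 866, 269 and 225 normalized counts in p53_G34R tumours, against 56.9, 240.4, 124 and 147 in p53_WT tumours. In Vegfa p53_WT replicate 2 lay above p53_G34R replicates 2 and 3, and in Ankrd37 it lay above replicate 3. Car9, the carbonic anhydrase used as a marker of hypoxic tumour, had 6451, 66.9 and 58.8 normalized counts in p53_G34R tumours, against 8.93, 201, 57.9 and 133 in p53_WT tumours, and the lactate dehydrogenase gene Ldha had 50125, 10842 and 13292 normalized counts in p53_G34R tumours, against 5176, 21003, 7656 and 11288 in p53_WT tumours. For both, p53_G34R replicate 1 alone was above the p53_WT range. Hmox1, a haem oxygenase of the oxidative stress response, had 60814, 16767 and 9914 normalized counts in p53_G34R tumours, against 1373, 8834, 4569 and 6060.1 in p53_WT tumours, with no overlap (log2 difference 2.34, SE 0.78).

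The HIF core motif ACGTG is shown in the promoter of Ankrd37, as a target of that factor. The window is from RefSeq on GRCm38.p6, on the minus strand at chr8:45999801-46000100, and capitals mark the motif on either strand.
Ankrd37: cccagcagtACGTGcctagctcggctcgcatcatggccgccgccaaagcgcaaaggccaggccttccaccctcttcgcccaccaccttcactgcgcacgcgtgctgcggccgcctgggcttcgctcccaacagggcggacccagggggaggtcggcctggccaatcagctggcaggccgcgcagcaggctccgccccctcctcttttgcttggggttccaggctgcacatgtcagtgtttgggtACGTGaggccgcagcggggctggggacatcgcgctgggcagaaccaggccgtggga
Ankrd37 held 2 matches, starting 241 and 6 bases before the gene start. The motif was in a window of 14 of 24 hypoxia and glycolysis genes with a promoter in the table (58.3%), 3 of 15 metalloproteinase and inhibitor genes (20.0%), 2 of 13 collagen genes (15.4%) and 5886 of all 27025 genes (21.8%). Where RefSeq gives several starts for a gene, a match in any of its windows was counted, here and for AP-1.

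Genes of the unfolded protein response, which follows load on the endoplasmic reticulum, had 15 of 16 positive (median 0.47), with p53_G34R replicate 1 highest for 14. Without that tumour 7 were positive and the median was -0.01. Sel1l, part of the machinery that degrades misfolded proteins, was the 1 member without overlap (1.23% of all genes were higher without overlap). It had 9582, 7449 and 7622 normalized counts in p53_G34R tumours, against 4986, 4147, 7296 and 4806 in p53_WT tumours (log2 difference 0.65, SE 0.27). The chaperone gene Hspa5 had 79653, 15878 and 29421 normalized counts in p53_G34R tumours, against 26302, 28904, 15399 and 13706 in p53_WT tumours, with replicate 1 far above the others and p53_G34R replicate 2 near the bottom of the p53_WT range.

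**Figure D3:**
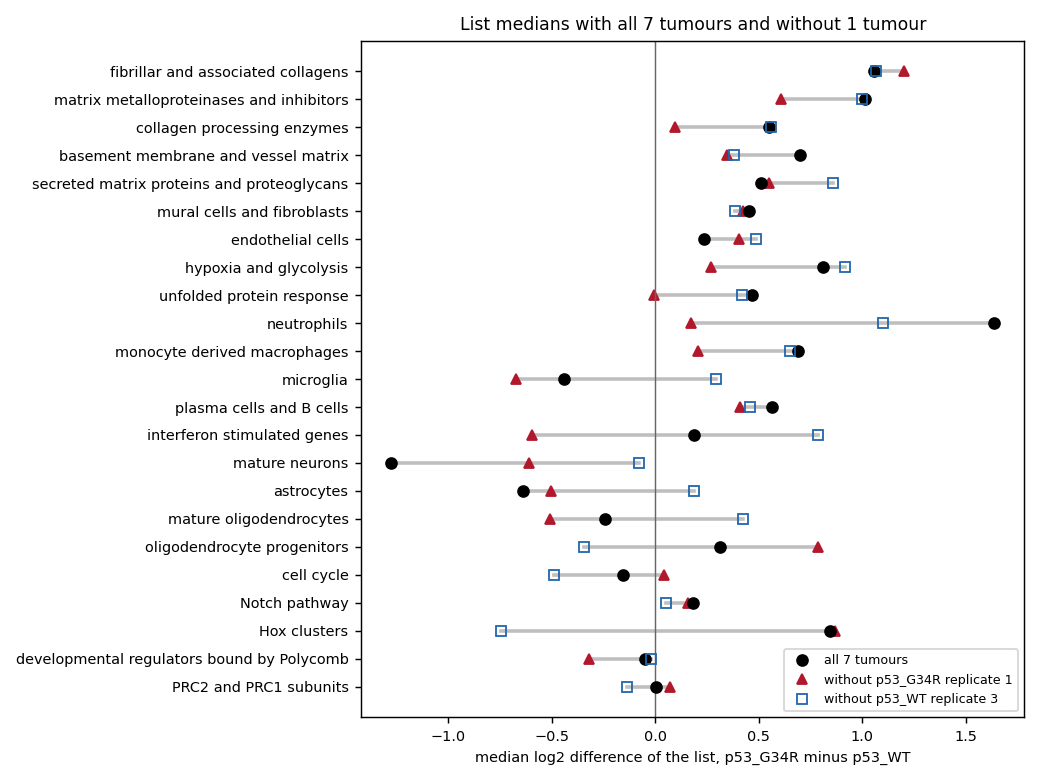
Median log2 difference, p53_G34R minus p53_WT, of 23 gene lists with all 7 tumours (black circles), without p53_G34R replicate 1 (red triangles) and without p53_WT replicate 3 (open blue squares). The collagen median is 1.06, 1.20 and 1.07 in these settings, the hypoxia, unfolded protein and neutrophil medians shrink towards 0 without p53_G34R replicate 1, and the neuron, astrocyte, microglia and Hox medians move to or past 0 without p53_WT replicate 3.

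Immunoglobulin genes were high in 2 of the 3 H3.3G34R tumours. Igha, the heavy chain of IgA, had 13336, 91.9 and 1364 normalized counts in p53_G34R tumours, against 141, 70.7, 23.3 and 155 in p53_WT tumours. Ighg2b, a heavy chain of IgG, had 929, 3.57 and 166 normalized counts in p53_G34R tumours, against 1.12, 6.53, 4.32 and 1.06 in p53_WT tumours. Jchain had 2069, 18.7 and 207 normalized counts in p53_G34R tumours, against 23.4, 21.8, 24.2 and 10.6 in p53_WT tumours. In all 3 genes p53_G34R replicates 1 and 3 lay above every p53_WT tumour and replicate 2 lay within the p53_WT range. Igkc, the constant part of the kappa light chain, had 10062, 84.8 and 1286 normalized counts in p53_G34R tumours, against 285, 140.4, 35.4 and 151 in p53_WT tumours, and Ighm, the heavy chain of IgM, had 181, 147 and 146 normalized counts in p53_G34R tumours, against 530.0, 41.3, 1164 and 252 in p53_WT tumours, where p53_WT replicate 3 was highest. Immunoglobulin segments resemble each other in sequence, so the split of reads between them is uncertain.

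Of 25 plasma cell and B cell genes 20 were tested and 14 were positive (median 0.56). Their sums were 40649, 4762 and 9222 in p53_G34R tumours and 6768, 4592, 5947 and 4845 in p53_WT tumours. Mzb1, a chaperone of antibody assembly in plasma cells, had 63.5, 4.46 and 12.7 normalized counts in p53_G34R tumours, against 5.58, 0, 0.864 and 6.37 in p53_WT tumours, and it was highest in the same replicates 1 and 3. T and NK cell genes had 7 of 15 positive (median -0.08).

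The myeloid lists peaked in different tumours: p53_G34R replicate 1 was highest for 8 of 11 neutrophil genes and 9 of 19 genes of monocyte-derived macrophages, and p53_WT replicate 3 for 14 of 17 microglia genes. Neutrophil genes had 10 of 11 positive (median 1.64), 2 of which are also metalloproteinase genes, and their median was 0.18 without p53_G34R replicate 1. Clec4d, a lectin receptor of neutrophils and macrophages, had 1144, 77.6 and 47.9 normalized counts in p53_G34R tumours, against 8.93, 51.1, 26.8 and 20.2 in p53_WT tumours, with overlap at p53_G34R replicate 3 only (log2 difference 2.80, SE 1.12). The calprotectin gene S100a8 had 534, 89.3 and 4.52 normalized counts in p53_G34R tumours, against 68.1, 2.18, 6.05 and 102 in p53_WT tumours, Ly6g held at most 6.37 in any tumour, and Elane was at 0 in all. Genes of monocyte-derived macrophages had 13 of 19 positive (median 0.69), and 11 without p53_G34R replicate 1 (median 0.21). Among them Arg1, the arginase of suppressive macrophages, had 6679, 1252 and 123 normalized counts in p53_G34R tumours, against 7.81, 385, 281 and 1038 in p53_WT tumours, and its groups overlapped. Il1b, the gene of interleukin 1 beta, had 402, 80.3 and 91.4 normalized counts in p53_G34R tumours, against 50.2, 4.35, 18.1 and 68 in p53_WT tumours, with every p53_G34R tumour above the p53_WT tumours (log2 difference 2.56, SE 1.01).

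Interferon-stimulated genes had 20 of 25 positive (median 0.19), but without p53_G34R replicate 1 2 were positive and the median was -0.60. Antigen presentation genes had 15 positive of 18 (median 0.33), and 5 without that tumour (median -0.20). Microglia genes had 1 of 17 positive (median -0.44), but 11 without p53_WT replicate 3 (median 0.29). The part of immune cells in the matrix values was not tested.

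**Figure D4:**
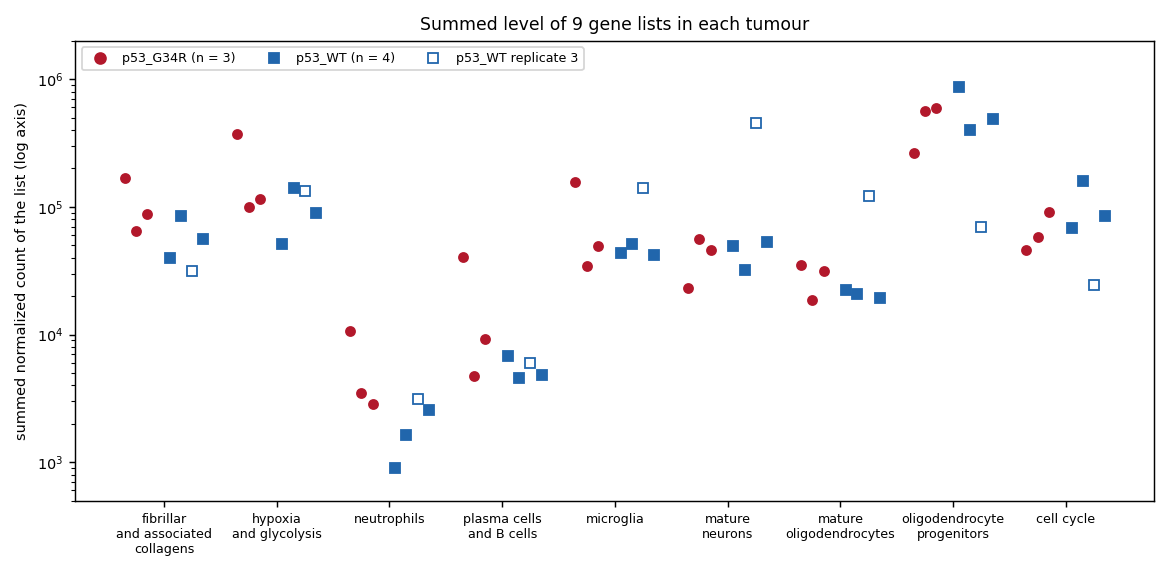
Summed normalized count of 9 gene lists in each tumour on a log axis, p53_G34R (red circles, n = 3, replicates 1 to 3 from left to right) left of p53_WT (blue squares, n = 4, replicate 3 open). p53_G34R replicate 1 is highest for collagen, hypoxia, neutrophil and plasma cell genes, and p53_WT replicate 3 is highest for mature neuron and mature oligodendrocyte genes and lowest for oligodendrocyte progenitor and cell cycle genes.

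Genes lower in H3.3G34R tumours with groups that did not overlap included regulators of the forebrain and of neuronal signalling. Lhx2, a homeobox factor of the developing forebrain and its progenitors, had 399, 620.3 and 706 normalized counts in p53_G34R tumours, against 1318, 1240.3, 1395 and 1055 in p53_WT tumours. Its tumours stayed apart with and without p53_WT replicate 3 (log2 difference -1.15, SE 0.28, and -1.10 with SE 0.29 without p53_WT replicate 3). Cdon, a receptor component of the Hedgehog pathway, had 94.2, 155 and 231 normalized counts in p53_G34R tumours, against 261, 595, 537 and 529 in p53_WT tumours (log2 difference -1.60, SE 0.46). Id4, an inhibitor of differentiation in neural progenitors and astrocytes, had 93.1, 83 and 57 normalized counts in p53_G34R tumours, against 156, 255, 1002 and 257 in p53_WT tumours. All p53_G34R tumours lay below the p53_WT tumours in both genes, and p53_WT replicate 3 was highest for Id4 (log2 difference -2.05, SE 0.65, and -1.50 without it).

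Cnr1, the cannabinoid receptor of neurons, had 199.9, 227 and 297 normalized counts in p53_G34R tumours, against 739.7, 873, 5210.3 and 1221 in p53_WT tumours. p53_WT replicate 3 was highest, and without it the log2 difference was -1.95 with SE 0.32, against -2.58 with SE 0.65 in 7 tumours. Tac1, the gene of the neuropeptide substance P, had 26.4, 48.2 and 70.6 normalized counts in p53_G34R tumours, against 418, 238, 378 and 83.9 in p53_WT tumours. Ddc had 13.8, 10.7 and 6.33 normalized counts in p53_G34R tumours, against 36.8, 108, 179 and 41.4 in p53_WT tumours. Neither gene's groups overlapped (log2 difference -2.38, SE 0.66 for Tac1, and log2 difference -2.79, SE 0.69 for Ddc).

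Other lower genes encode an enzyme, a transporter and signalling proteins. Chdh, the choline dehydrogenase of mitochondria, had 55, 67.8 and 41.6 normalized counts in p53_G34R tumours, against 169.6, 219, 97.6 and 273 in p53_WT tumours. Abca8a, a membrane transporter, had 18, 33 and 42.5 normalized counts in p53_G34R tumours, against 219.8, 118, 101 and 74.4 in p53_WT tumours. Rerg, a small GTPase of the Ras family, had 101, 84.8 and 202 normalized counts in p53_G34R tumours, against 384, 481, 268 and 472 in p53_WT tumours. In these 3 genes no p53_G34R tumour reached the lowest p53_WT tumour, and the log2 differences were -1.70 (SE 0.48), -1.97 (SE 0.55) and -1.70 (SE 0.44). Kl, the ageing-related protein klotho, had 13.8, 7.14 and 8.14 normalized counts in p53_G34R tumours, against 54.7, 19.6, 114 and 61.6 in p53_WT tumours (log2 difference -2.38, SE 0.68).

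Without p53_WT replicate 3, a choice made after the data were seen, DESeq2 called 19 genes, of which 3 were also called with all 7 tumours, namely Col5a2, Mmp13 and Igkj1. Of the added ones 9 were lower in p53_G34R tumours, and 7 of these were lowest, within the p53_WT group, in the left-out tumour itself, among them Otos, Gpr149 and Tbx18. Otos, known from the inner ear, had 30.7, 50.9 and 42.5 normalized counts in p53_G34R tumours, against 344, 338, 15.6 and 239 in p53_WT tumours. Gpr149, an orphan receptor gene, had 34.9, 76.8 and 101 normalized counts in p53_G34R tumours, against 513, 456, 62.2 and 462 in p53_WT tumours. Tbx18, a T-box factor of mural cells and other mesenchyme, had 108, 88.4 and 82.3 normalized counts in p53_G34R tumours, against 508, 943, 167 and 215 in p53_WT tumours. In p53_WT replicates 1, 2 and 4 each of them was above every p53_G34R tumour, with DESeq2 adjusted p of 1.04e-07 for Otos, 3.74e-05 for Gpr149 and 0.00795 for Tbx18. Tbx18 was above every p53_G34R tumour in p53_WT replicate 3 too, so its groups did not overlap in all 7 tumours. Limma called 0 of 17446 genes without that tumour (0.0%), with 292 higher (1.67%) and 167 lower (0.957%) at an unadjusted p under 0.05.

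Among the 220 higher genes with groups that did not overlap, those of smallest limma p outside the matrix lists included Ppic, Anxa1, Creb3l3, Cfl2, Fxyd7 and Dnm3os. Anxa1, an anti-inflammatory protein that binds phospholipids, had 621, 849.7 and 694 normalized counts in p53_G34R tumours, against 77, 364, 226 and 133 in p53_WT tumours (log2 difference 2.06, SE 0.54). Ppic, a prolyl isomerase that aids protein folding, had 1120.4, 771 and 1352 normalized counts in p53_G34R tumours, against 329, 481, 415 and 599 in p53_WT tumours (log2 difference 1.24, SE 0.32). Fxyd7, a regulator of the sodium pump, had 4844, 1615 and 888 normalized counts in p53_G34R tumours, against 576, 351, 728 and 335 in p53_WT tumours, with p53_G34R replicate 1 far above the others. Cfl2, an actin-severing protein, had 3957, 3721 and 2345 normalized counts in p53_G34R tumours, against 1146, 1506, 1777 and 2083 in p53_WT tumours, where p53_G34R replicate 3 and p53_WT replicate 4 were close. Dnm3os, the host transcript of a microRNA cluster in mesenchyme, had 26.4, 29.5 and 25.3 normalized counts in p53_G34R tumours, against 7.81, 5.44, 7.78 and 6.37 in p53_WT tumours, and Creb3l3, a membrane-bound transcription factor of liver, had 33.9, 58.9 and 36.2 normalized counts in p53_G34R tumours, against 11.2, 9.79, 14.7 and 7.44 in p53_WT tumours.

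Genes of mature brain cells were lower in H3.3G34R tumours, and this rested on p53_WT replicate 3. Mature neuron genes had 2 of 25 positive (median -1.28) and all 25 were highest in that tumour. Without it 10 were positive and the median was -0.08. Snap25, a protein of synaptic vesicle fusion, had 191, 1538 and 648 normalized counts in p53_G34R tumours, against 466, 151, 38398 and 889 in p53_WT tumours, and Mobp, a myelin protein, had 122, 20.5 and 43.4 normalized counts in p53_G34R tumours, against 135, 265, 17629 and 678 in p53_WT tumours. In Snap25 the groups otherwise overlapped, whereas in Mobp p53_G34R tumours lay below all p53_WT tumours, with log2 difference -4.05 (SE 1.57) and -2.57 with SE 0.81 without p53_WT replicate 3. Astrocyte genes had 5 of 20 positive (median -0.64) and 12 without the tumour (median 0.19). Slc1a3, a glutamate transporter of astrocytes, had 2249, 7061 and 10361 normalized counts in p53_G34R tumours, against 9818, 18991, 20290.0 and 13397 in p53_WT tumours, where p53_G34R replicate 3 lay just above p53_WT replicate 1 (log2 difference -1.45, SE 0.54).

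Oligodendrocyte progenitor genes ran the other way for the same tumour, with 15 of 18 positive (median 0.31) and 2 positive without p53_WT replicate 3 (median -0.34). Cell cycle genes had 11 of 30 positive (median -0.16) and 0 positive without that tumour (median -0.49), with p53_WT replicate 2 highest for 28 of them. Without p53_WT replicate 2 the cell cycle median was 0.22 and 25 were positive. Mki67, a marker of dividing cells, had 4022, 6075 and 14734 normalized counts in p53_G34R tumours, against 12341, 27825, 2714 and 12404 in p53_WT tumours, and the groups overlapped. The log2 difference of Mki67 was -0.54 (SE 0.78), and -1.19 with SE 0.54 without p53_WT replicate 3. Haemoglobin and other erythroid genes, a sign of blood in the tissue, had 0 of 8 positive, and their sums were 33496, 18577 and 546 in p53_G34R tumours and 431192, 3249.8, 1209.7 and 78798 in p53_WT tumours.

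The series title names Notch signalling, targets of the Polycomb complex PRC2 and neuronal lineage, and none of these lists separated the groups with Atrx intact. Notch pathway genes had 23 of 36 positive (median 0.18, and 0.05 without p53_WT replicate 3). In the higher direction 1 had groups without overlap (1.23% of all genes) and 1 had an unadjusted limma p under 0.05 (0.761% of all genes). The gene with a p under 0.05 was Hes1, the repressor that Notch induces. Hes1 had 1069, 1848 and 945 normalized counts in p53_G34R tumours, against 498, 588, 499 and 1002 in p53_WT tumours. p53_G34R replicate 3 lay just below p53_WT replicate 4 (log2 difference 0.99, SE 0.36). The receptor ligand gene Dll4 had 441, 599 and 944 normalized counts in p53_G34R tumours, against 185, 698, 305 and 419.6 in p53_WT tumours, with overlap.

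Developmental regulators bound by Polycomb had 22 of 46 tested members positive (median -0.05), with 74 listed and 4 of them at 0 in all tumours. Of these 1 was higher and 2 lower at an unadjusted limma p under 0.05 (0.761% and 0.705% of all genes). The higher one was Gsc, a homeobox factor of the early embryo, with 59.2, 20.5 and 8.14 normalized counts in p53_G34R tumours, against 0, 3.26, 0 and 10.6 in p53_WT tumours and an overlap at p53_G34R replicate 3, and the lower ones were Lhx2 and Tbx18. Lhx2 and Tbx18 were also the 2 members lower without overlap (1.38% of all genes), and 0 were higher without overlap (1.23% of all genes). Only 7 of 39 Hox genes passed the filter on low values and 16 were at 0 in all tumours. All 7 had a positive log2 difference (median 0.85), but 2 were positive without p53_WT replicate 3 (median -0.75). Hoxa5, which patterns the hindbrain and spinal cord, had 99.4, 121 and 57 normalized counts in p53_G34R tumours, against 14.5, 1263, 0 and 70.1 in p53_WT tumours. The p53_G34R tumours lay inside the p53_WT range, whose top was p53_WT replicate 2 and whose bottom was replicate 3. Subunits of PRC2 and PRC1 had 16 of 28 positive (median 0.00), writers, erasers and readers of the H3K36 mark 12 of 23 (median 0.01), and H3.3 chaperones with H3K9 methylation genes 10 of 20 (median 0.00). Without p53_WT replicate 3 these lists had 10 of 28 (median -0.13), 6 of 23 (median -0.17) and 2 of 20 (median -0.20) positive.

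Neuronal fate and early neuron genes had 13 of 21 positive (median 0.28, and -0.07 without p53_WT replicate 3). Ebf2, a transcription factor of early neurons, had 6.35, 27.7 and 49.8 normalized counts in p53_G34R tumours, against 1.12, 6.53, 0.864 and 1.06 in p53_WT tumours, and only p53_G34R replicate 1 overlapped with a p53_WT tumour (log2 difference 2.98, SE 0.98). Insm1, a zinc finger factor of neuronal progenitors, had 26.4, 11.6 and 5.43 normalized counts in p53_G34R tumours, against 17.9, 76.2, 143 and 34 in p53_WT tumours, with p53_G34R replicate 1 above p53_WT replicate 1 (log2 difference -1.99, SE 0.84).

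The histone difference was then set beside that in tumours with floxed Atrx (ATRXfl_G34R, n = 4, and ATRXfl_WT, n = 4), which share no library with the intact groups. Values in this comparison were scaled over all 15 libraries, and the interaction is the H3.3G34R minus H3.3WT difference with floxed Atrx minus that with intact Atrx. Limma called 0 of 17776 genes for the interaction (0.0%, with 365 at an unadjusted p under 0.05, 2.05%), and every adjusted limma p was 0.999591 or higher. EdgeR called 0 (816 unadjusted, 4.59%), and DESeq2 called 10 of 24033 (0.0416%), of which 5, namely Mobp, Syt1, Apob, Nrsn2 and Trhde, were by far the highest in p53_WT replicate 3 among the intact tumours. With Atrx floxed, ATRXfl_WT replicate 1 stood apart for matrix genes, with 184694 normalized counts of Col4a1, 19361 of Lamb1 and 6896 of Mmp10, where the other 3 ATRXfl_WT tumours held at most 36916, 3877 and 522. Values without it, a choice made after the data were seen, are given beside the matrix results.

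The collagen list had a median difference of -0.34 with Atrx floxed (7 of 17 positive), beside 1.06 with Atrx intact. Of its 17 members 4 had an unadjusted limma interaction p under 0.05 (2.05% of all genes). Without ATRXfl_WT replicate 1 the floxed median was 0.21 (12 of 17 positive), and without ATRXfl_G34R replicate 1 it was 0.016 (9 of 17). Col5a1 held 1368, 2067, 1434 and 1258 in ATRXfl_G34R tumours, against 3413, 5958, 2345 and 1512 in ATRXfl_WT tumours. Its difference was -0.96 (SE 0.37) with Atrx floxed, and the interaction was -2.01 (SE 0.54). Col5a2 held 663, 1445, 503 and 786 in ATRXfl_G34R tumours, against 9311, 258, 1071 and 409 in ATRXfl_WT tumours, with an interaction of -2.13 (SE 1.18). The difference of Col5a2 with Atrx floxed was -0.37 (SE 0.80), and 0.70 without ATRXfl_WT replicate 1, when its interaction was -1.06. Without the same tumour Col5a1 kept a difference of -0.88 and an interaction of -1.94. Its highest floxed tumour was ATRXfl_WT replicate 2, without which these values were -0.61 and -1.67. Loxl2 had a difference of -0.23 (SE 0.63) with Atrx floxed and an interaction of -2.66 (SE 0.93), or 0.26 and -2.17 without ATRXfl_WT replicate 1. Without p53_G34R replicate 1 the interaction of Loxl2 was -1.76.

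Metalloproteinase genes had a median of 0.20 with Atrx floxed (11 of 19 positive), basement membrane genes -0.59 (1 of 16) and hypoxia genes 0.23 (21 of 29). Without ATRXfl_WT replicate 1 these medians were 0.59 (14 positive), 0.020 (8 positive) and -0.011 (13 positive), and the hypoxia median was -0.011 without ATRXfl_G34R replicate 4. Mmp13 held 344, 96.5, 15.8 and 76 in ATRXfl_G34R tumours, against 242, 4.67, 30.5 and 40.7 in ATRXfl_WT tumours, and its interaction was -2.76 (SE 1.66), or -1.85 without ATRXfl_WT replicate 1. Its floxed difference stayed positive with each floxed tumour left out. The lowest value was 0.25, without ATRXfl_WT replicate 2, and the highest 2.06, without ATRXfl_WT replicate 1. Mmp9 had an interaction of -4.12 (SE 1.54) and Adm of -2.44 (SE 0.91), with differences of -1.14 and -0.20 with Atrx floxed. Mmp9 held 1093, 3252, 189.6 and 489.5 in ATRXfl_G34R tumours, against 9576, 465, 2574 and 674 in ATRXfl_WT tumours, and without ATRXfl_WT replicate 1 its floxed difference was -0.30 and its interaction -3.28. Without ATRXfl_G34R replicate 3 the floxed difference of Adm was 0.35. Mmp2 was lower with H3.3G34R in both settings, with log2 differences of -2.15 (SE 0.86) with Atrx floxed and -1.42 with Atrx intact.

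Of the lower genes, Lhx2 held 659, 692, 697 and 474 in ATRXfl_G34R tumours, against 279.6, 501, 811 and 818 in ATRXfl_WT tumours. Its difference was 0.17 (SE 0.32) with Atrx floxed, and the interaction was 1.33 (SE 0.47). Cnr1 had an interaction of 3.11 (SE 0.85) and Kl of 3.38 (SE 0.92), and these were 2.48 and 3.01 without p53_WT replicate 3. Mature neuron genes had a median of 1.92 with Atrx floxed (22 of 25 positive) and cell cycle genes 0.54 (29 of 30), both opposite in sign to the intact medians over all tumours, and limma called the interaction for 0 of their members, whereas DESeq2 called Syt1. Both intact medians rested on single tumours, and were -0.08 without p53_WT replicate 3 for neurons and 0.22 without p53_WT replicate 2 for the cell cycle. ATRXfl_G34R replicate 3 was high for neuron genes, with 2303 normalized counts of Syt1 against 89.4 to 322 in the other ATRXfl_G34R tumours. Without it the floxed neuron median was 1.08, and without ATRXfl_WT replicate 1 the floxed cell cycle median was 0.21. The floxed difference of Lhx2 was -0.15 without ATRXfl_WT replicate 1.

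**Figure D5:**
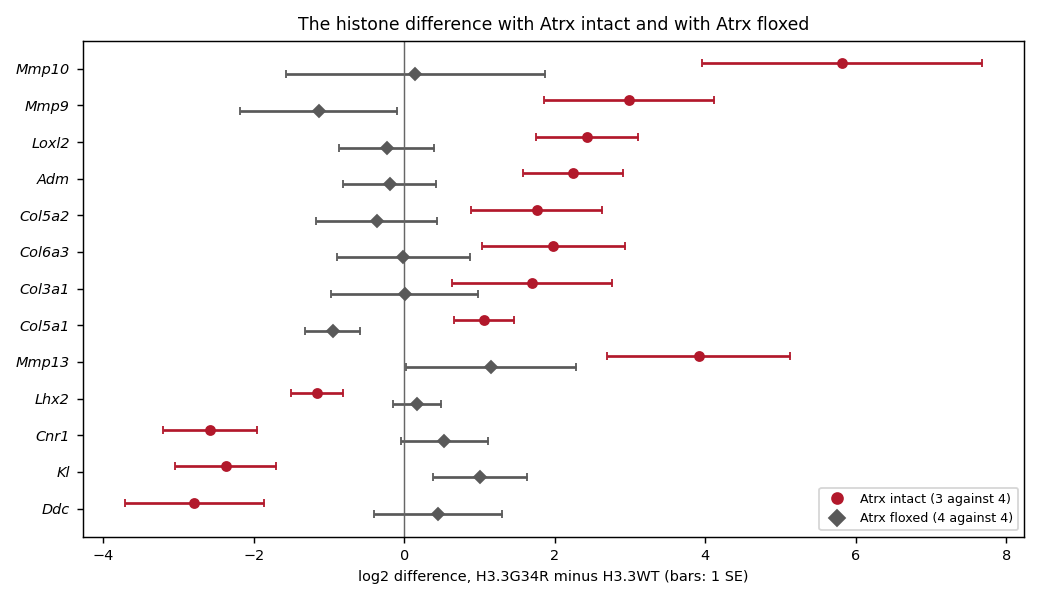
Log2 difference, H3.3G34R minus H3.3WT, of 13 genes with Atrx intact (red circles, 3 against 4 tumours) and with Atrx floxed (grey diamonds, 4 against 4), with bars of 1 SE from the limma fit over 15 libraries. Of the genes higher with Atrx intact, Col5a1 and Loxl2 have differences near or below 0 with Atrx floxed, whereas Mmp13 has one above 0. Lhx2, Cnr1, Kl and Ddc, lower with Atrx intact, have differences above 0 with Atrx floxed. Without ATRXfl_WT replicate 1 the floxed difference is -0.15 for Lhx2, 0.26 for Loxl2 and 2.06 for Mmp13.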

How the data were processed

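RNA of tumours was extracted with RNeasy and made into TruSeq libraries, per the labels' protocols. STAR 2.7, HTSeq and DESeq2 with build mm10 are named in the submitters' processing notes, while the annotation, the strand setting and any filter were not given in the sources used here. Tables of 54232 genes were deposited by the authors, of which 2 were used here, 1 per Atrx status. Each table holds a signal per library, the authors' normalized count (reads divided by a size factor set within that table), and the authors' own comparison as log2 fold changes with their SE, the Wald statistic (a score), p-values and adjusted p-values, per the file headers. The 3 other deposited tables were not used here, since their libraries are in these 2.

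The normalized counts were whole multiples of the value of 1 read in 100% of cases (tolerance 0.01), which returned the reads and the depth, 24979735 to 35679129 in the 7 intact libraries. Gene names and positions are from GENCODE vM21 (mm10), which matched 54165 IDs (99.9%). Limma 3.58.1 (trend, robust, R 4.3.3) compared p53_G34R with p53_WT on log2(normalized count + 1) over genes with a mean of at least 10, two-sided, with Benjamini-Hochberg adjustment and a threshold of 0.05; the added 1 understates the change of low genes. The interaction was fitted over 15 libraries rescaled together. EdgeR 4.0.16 and DESeq2 1.42.0 were run on the recovered reads. The other alternatives were no filter, pseudocounts of 0.5 and 5, limma-voom quality weights, TMM scaling, all groups in 1 fit, log2 Xist as a covariate, libraries sharing a title code summed, each library left out, and, added after the data were seen, edgeR and DESeq2 without p53_WT replicate 3 and the floxed comparison without each of its libraries. The limma, edgeR, DESeq2 and voom fits were tested on simulated data. Libraries of a group differed by a chi-square of 105 to 663 per degree of freedom (9 pairs, genes with at least 20 reads). None therefore repeats the reads of another, but this does not show that they came from separate mice. A floor of 3 reads over a group stands for a group at 0.

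The comparison and the 42 gene lists were chosen with earlier results of these data known. In the lists, 1 symbol had no match. Genes were named if they were engineered, called in the authors' deposited table, among the 10 smallest limma p-values per direction without overlap between the groups (predicted genes left out), or among the 4 smallest of a list. Mmp2, Mmp3, Mmp7, Mmp8, Mmp12, Col6a1, Col12a1, Col16a1, Car9, Ldha, Hmox1, Timp1, Igkc, Ighm, S100a8, Ly6g, Elane, Snap25, Xist, Otos, Gpr149, Apob, Nrsn2 and Trhde fall outside this rule and were chosen after their values were seen. Values of some genes are not reported here. Promoter windows are from RefSeq (GRCm38.p6).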

Additional observations from a re-analysis of the deposited data

Results flagged for a closer look

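In the p53_WT group, the only one of the 2 with 4 tumours, the distance of the highest or lowest tumour to its nearest neighbour was divided by the group's whole range and set against Dixon's critical value for 4 values. 16 of the 94 genes named here that vary in that group passed it. The distances were taken on normalized counts and not on log2 values, and some genes were chosen after their values were seen. The test's nominal rate of 1 in 20 therefore does not apply to this count, which only describes the values. p53_WT replicate 3 stood apart for 8 of them and replicate 2 for 7.

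Genes of neurons and myelin were high in p53_WT replicate 3. It held 38398 normalized counts of Snap25 (the next tumour 889), 32259.9 of Syt1, a synaptic vesicle gene (next 1686), 17629 of Mobp (next 678), 5210.3 of Cnr1 (next 1221), 2845 of Necab1 (next 328) and 1002 of Id4 (next 257). The same tumour was high for Mmp3, with 129 normalized counts (next 15.2), and low for Gpr149, with 62.2 (next 456).

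Some matrix genes, but not all, were high in p53_WT replicate 2, which held 23210.1 normalized counts of Col4a1 (next 13714), 1825 of Col6a3 (next 556), 1006 of Mmp9 (next 163) and 265 of Mmp10 (next 14.9). It was also high for Hoxa5 with 1263 (next 70.1), for Npy2r with 1225 (next 187) and for Ebf2 with 6.53 (next 1.12). p53_WT replicate 1 held 1.12 normalized counts of Igkj1, a single read, and the others 0.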

How the results depend on the processing

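With 3 tumours against 4, the count of genes called was 0 under every planned setting but 1. DESeq2 on the recovered reads called 12 genes between the intact groups and 10 for the interaction, and DESeq2 without p53_WT replicate 3, a setting added after the data were seen, called 19. Leaving out each tumour in turn left 0 genes called in every case for both comparisons, with 194 to 459 genes at an unadjusted p under 0.05 between the intact groups and 273 to 614 for the interaction. Limma without the filter on low values called 0 genes, with 642 of 33769 at an unadjusted p under 0.05. No paired analysis was possible because the labels give no replicate number that the groups share.

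Of 93 genes with a log2 difference here, 85 kept their sign in every setting that gave a value. The median of no list moved by more than its spread between tumours under TMM scaling, either pseudocount, no filter, 1 fit over all 4 groups or log2 Xist as a covariate, but 15 of 42 medians changed sign without p53_WT replicate 3. Pdgfa, at 0.80 in limma, was -0.17 by edgeR, -0.20 by DESeq2 and -0.34 by limma-voom with quality weights, and -0.28 to 1.58 with each tumour left out. Hoxa5, at 1.38, was -1.83 by edgeR and -0.32 to 3.11 with each tumour left out. Pdgfra, at 0.85, ran over -0.18 to 1.37 with each tumour left out, H3f3a, at 0.16, over -0.020 to 0.39, and Snap25, at -1.11, over -2.13 to 0.53. Without p53_WT replicate 3, edgeR and DESeq2 gave -0.59 and -0.58 for Pdgfa, -2.25 and -2.27 for Hoxa5, -0.22 and -0.22 for Pdgfra, -0.058 and -0.069 for H3f3a, and 0.66 and 0.67 for Snap25. Limma-voom with quality weights, which gives less weight to tumours far from their group, gave 0.27 for Snap25, -0.36 for S100a8 (1.69 in limma), -0.24 for Mmp8 (1.64 in limma) and -0.38 for Col12a1 (0.73 in limma). Col12a1 ran over -1.01 to 1.75 with each tumour left out, the lowest value being without p53_G34R replicate 1. The cause of these changes was not tested.

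At 24979735 to 35679129 reads in genes per tumour, counting error is small for abundant genes. A gene below about 10 normalized counts rests on about as many reads, so Igkj1, Ighg2b, Dnm3os, Mzb1 and Ebf2 in p53_WT tumours are near the limit of detection. So are Npy2r, Cwh43 and Klhdc7a in p53_G34R tumours, and other genes given here have single values that low.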

Other observations

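Lists of secreted signals, of targets of p53 and of cell types foreign to the cortex also held no gene that limma called. Chemokine genes had 12 of 18 positive (median 0.56) and interleukin and cytokine genes 11 of 15 (median 0.29). Without p53_G34R replicate 1 they had 3 of 16 positive (median -0.39) and 6 of 14 (median -0.11). Nos2, the inducible nitric oxide synthase, had 1765, 167 and 283 normalized counts in p53_G34R tumours, against 79.2, 267, 87.3 and 131 in p53_WT tumours, with p53_G34R replicate 2 inside the p53_WT range. Targets of p53 had 13 of 20 positive (median 0.17). Among them Phlda3, which restrains Akt signalling, had 4104, 2799.8 and 1768 normalized counts in p53_G34R tumours, against 1574, 1109, 1220.1 and 1772 in p53_WT tumours (log2 difference 0.97, SE 0.33), where p53_G34R replicate 3 lay just below p53_WT replicate 4.

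Genes of cartilage and bone had 6 of 14 tested members positive (median -0.08). The higher members were led by Mmp13 and by Col10a1, the collagen of hypertrophic cartilage, which had 12.7, 203 and 33.5 normalized counts in p53_G34R tumours, against 11.2, 1.09, 9.50 and 6.37 in p53_WT tumours. No p53_G34R tumour overlapped with the p53_WT tumours, although p53_G34R replicate 1 was close to p53_WT replicate 1 (log2 difference 2.78, SE 1.07). Choroid plexus and ependymal genes had 3 of 8 positive (median -0.17), and its member Enpp2, the autotaxin that also marks oligodendrocytes, had 17126, 8257 and 12750.4 normalized counts in p53_G34R tumours, against 11408, 2784, 5508 and 5624 in p53_WT tumours, with overlap. Epithelial keratin genes had 1 of 4 positive (median -0.09) and skeletal muscle genes 3 of 8 (median -0.69). Dorsal forebrain genes had 3 of 18 positive (median -1.22), ventral forebrain genes 4 of 16 (median -0.66) and mature oligodendrocyte genes 6 of 17 (median -0.24). Without p53_WT replicate 3 these medians were 0.07, 0.28 and 0.42. Neural stem and progenitor genes had 11 of 20 positive (median 0.04). The part of any of these cell types in the matrix genes was not tested.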
